A study of Mus musculus with 12 samples.

Results

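The genes described here are 41 components of epithelial cell junctions and of the apical and basal polarity machinery, measured in mouse embryonic lungs. They were chosen by name: 15 claudins, 5 other membrane proteins of the tight junction, 3 proteins of its plaque, 6 polarity proteins, 3 adherens junction proteins with the adhesion molecule Epcam, 7 desmosome proteins and the trafficking GTPase Rab25. All 41 were measured, among 22180 genes with a usable probe set. Total RNA of lungs at embryonic stage E14.5 was hybridised to 12 one-colour Affymetrix arrays, 4 per genotype. The Yy1 mutants were Yy1flox/flox;Shh+/Cre and the Dicer mutants were Dicerflox/flox;Shh+/Cre, while the controls were Shh+/Cre. Every embryo group therefore carried the same Cre allele, written in the labels as 1 of the 2 copies of Shh, and no Cre-free lungs were analysed here. Shh is expressed in the lung epithelium, so deletion is directed to that layer, while the arrays measured RNA of the lung with its mesenchyme, vessels and blood cells. The labels do not say whether a lung sample held 1 embryo or several, or which samples shared a litter, so the p-values measure the spread between these samples, which may be technical.

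Epithelial cells are joined near their apex by tight junctions, in which claudins form the paracellular seal and its ion pores, occludin and the other Marvel-domain proteins organise the strands, and plaque proteins of the zonula occludens family tie the strands to actin. Below them lie the adherens junctions, built on E-cadherin and the catenins, and the desmosomes, whose cadherins are anchored to keratin by plakophilins, plakoglobin and desmoplakin. The Crumbs, Par and Scribble complexes set the position of these junctions and so the border between the apical and the basolateral membrane. Yy1 is a zinc finger transcription factor, and Dicer is the nuclease that cuts microRNA precursors.

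The values are log2 levels as the authors normalised them, so a difference of 1 is a doubling, and levels are compared here only for 1 probe set across arrays. The calls rest on a limma model fitted to the 3 genotypes, with a threshold of 0.05 on p after Benjamini-Hochberg adjustment for the 22180 genes. Array medians lay between 5.99 and 6.08. Dicer1 had 8.19 ± 0.115 in Dicer mutants and 8.81 ± 0.165 in controls (SD, n = 4 each), and it was called lower (limma adjusted p = 0.00127). Yy1 had 8.84 ± 0.104 in Yy1 mutants and 9.03 ± 0.071 in controls (SD, n = 4 each), a difference of -0.19 that was not called (limma adjusted p = 0.125). The Y-linked gene Eif2s3y was raised in Yy1 mutant 2 and 3 and in Dicer mutant 4, at 7.99, 5.92 and 7.84, and lay between 3.73 and 4.48 in the 4 controls. The labels give no sex, and counts are given with and without these 3 arrays. Of the 41 genes, 10 had a mean level under the median of all genes, 6.48, among them Cldn8, Cldn9, Cldn10 and Pkp3.

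Yy1 mutant lungs had lower levels of E-cadherin (Cdh1), Epcam, occludin (Ocln), desmoplakin (Dsp), desmoglein 2 (Dsg2), the polarity protein Llgl2 and several claudins than control lungs. In this comparison 13 of the 41 genes were called lower (31.7%) and 1 higher (2.44%), where 3.84% of all genes were called lower and 2.77% higher. The median difference was -0.18 over the 41 genes and 0.00 over all genes, and 27 genes were not called. In Dicer mutant lungs, Cldn6, Cldn10, Dsp and Rab25 were among the genes with lower levels, while occludin, tricellulin (Marveld2) and Cldn5 were among those with higher levels. Here 9 of the 41 genes were called lower (22.0%) and 6 higher (14.6%), where 3.97% of all genes were called lower and 4.78% higher. The median difference was -0.12 over the 41 genes and -0.03 over all genes. Both comparisons use the same 4 control arrays, so the mutants were also compared with each other. Yy1 mutants had 9 of the 41 genes lower than Dicer mutants (22.0%) and 2 higher (4.88%), where 3.39% of all genes were called lower and 1.57% higher. The 9 genes lower in Yy1 mutants than in Dicer mutants included all 5 non-claudin membrane proteins of the tight junction. Without the 3 arrays with raised Eif2s3y, 11 genes were called lower and 0 higher in Yy1 mutants against controls, 8 lower and 2 higher in Dicer mutants against controls, and 7 lower and 0 higher between the mutants. The calls that ended without them were those of Cldn5, Cldn8, Ocln, Lsr and Patj in Yy1 mutants, Ocln, F11r, Tjp1, Mpp5 and Pkp3 in Dicer mutants, and Cldn9, Lsr, Dsg2 and Rab25 between the mutants. Cldn3 and Jup, not called with all arrays, were then called lower in Yy1 mutants against controls. The 6 genes higher in Dicer mutants became 3 without Dicer mutant 1, 3 or 4 or control 3 or 4, each left out alone. In these bulk samples, fewer epithelial cells and less RNA of a gene per cell cannot be told apart.

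**Figure D1:**
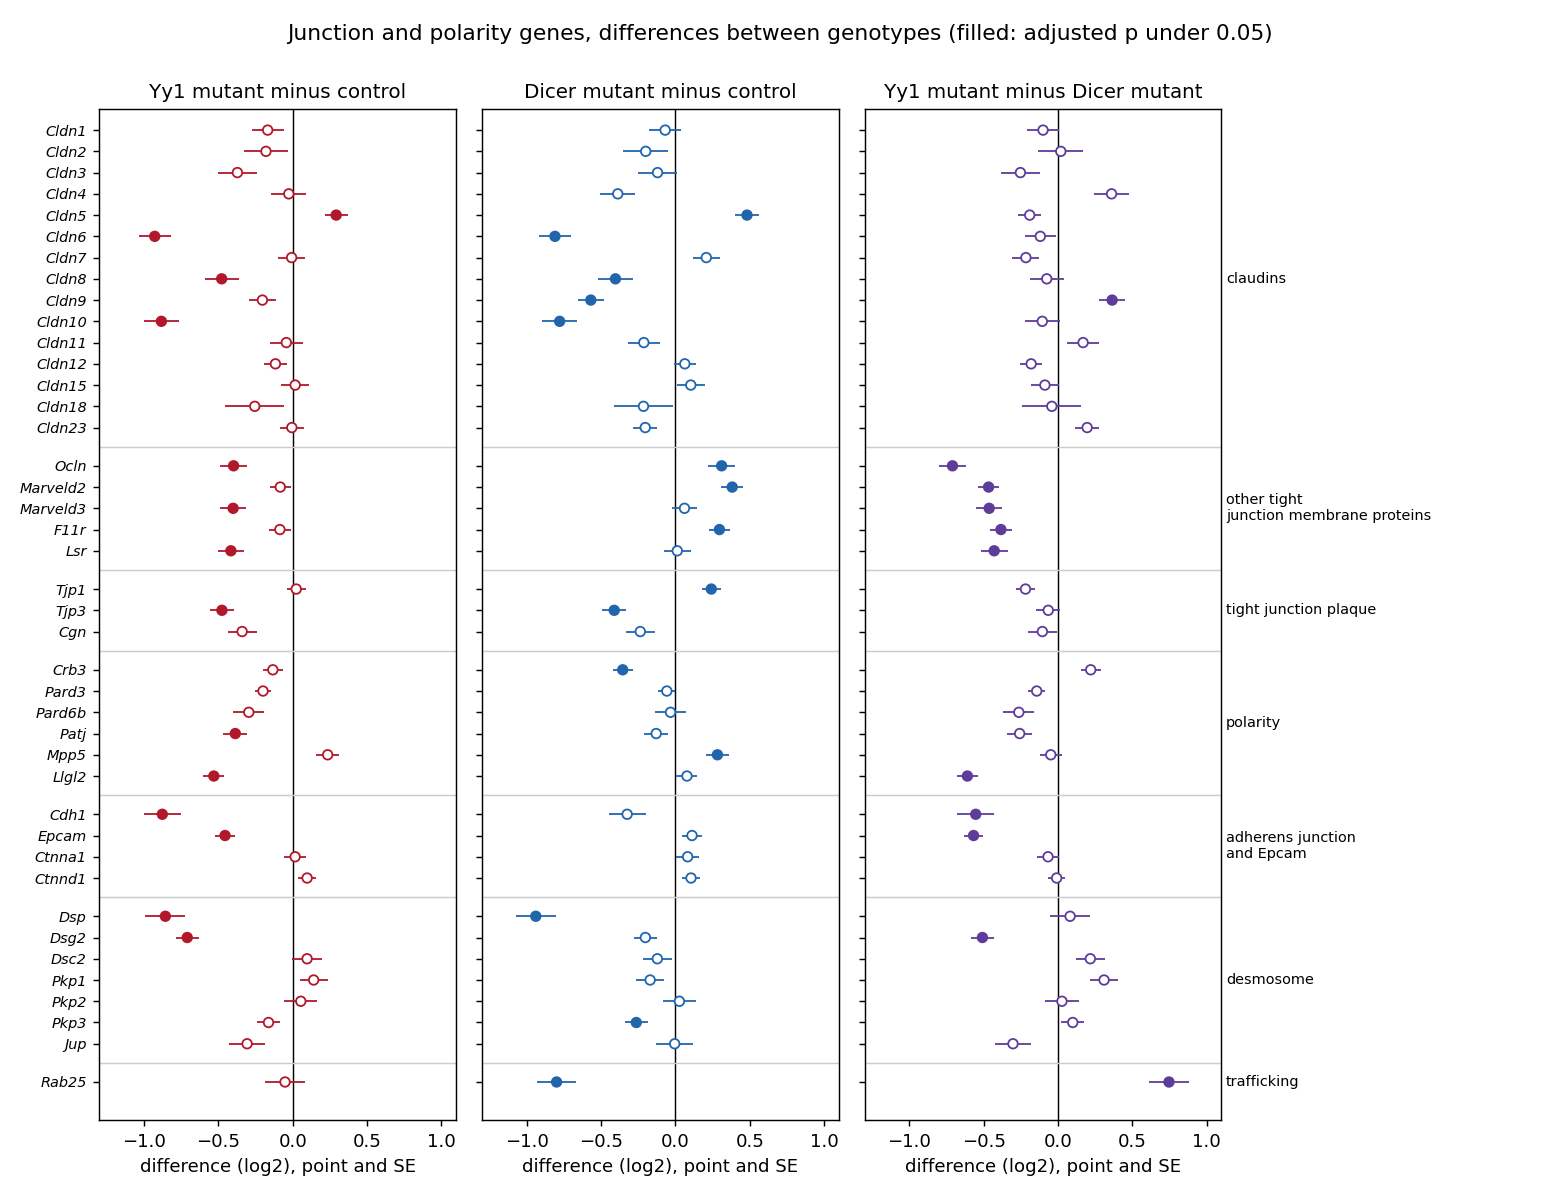
Log2 difference (horizontal axis) of each of the 41 genes, grouped by role, in Yy1 mutants minus controls, Dicer mutants minus controls and Yy1 mutants minus Dicer mutants, with bars of 1 standard error and filled points for limma adjusted p under 0.05. Cldn6 has the lowest value in the left panel (-0.93), Dsp in the middle panel (-0.94), and Rab25 the highest in the right panel (0.75).

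Upstream sequence was examined for 28 of the 41 genes, those with a start in the RefSeq promoter table (GRCm38.p6), over the 250 bases before each start. These sequences are shown because they carry the sites that the families of transcription factors known to act on junction genes bind. The E-box CACCTG (which reads CAGGTG on the opposite strand), the site of the repressors of the Snai and Zeb families, occurred in 13 of the 28 genes (46.4%) and in 19.4% of the 16990 genes in that table. Counted by window of the same length, it occurred in 36.6% of the 41 windows of these genes and in 17.1% of all 20611 windows. The Grainyhead-like site AACNGGTT (AACCNGTT on the other strand) occurred in 3 of the 28 genes, Cgn, Cldn5 and Rab25, which is 10.7%, against 2.0% of all genes. The core of the Yy1 site, GCCATNTT (AANATGGC on the other strand), occurred in 1 of the 28 genes, Cgn, which is 3.6%, against 4.4% of all genes. A match says that the letters are present, not that a factor binds there. In the 4 windows that follow, capitals mark the E-box on either strand and, in Rab25 alone, also the Grainyhead-like site, which comes first there and overlaps no E-box. They are the 250 bases before the start of Cldn6 at chr17:23679115-23679364 (plus strand), Epcam at chr17:87635729-87635978 (plus strand), Lsr at chr7:30973470-30973719 (minus strand) and Rab25 at chr3:88548280-88548529 (minus strand), each written 5′ to 3′ along the gene.
Cldn6: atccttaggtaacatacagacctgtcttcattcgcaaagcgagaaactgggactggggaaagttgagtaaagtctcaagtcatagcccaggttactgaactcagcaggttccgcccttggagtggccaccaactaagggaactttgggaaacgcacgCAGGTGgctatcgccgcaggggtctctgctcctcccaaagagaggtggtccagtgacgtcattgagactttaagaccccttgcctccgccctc
Epcam: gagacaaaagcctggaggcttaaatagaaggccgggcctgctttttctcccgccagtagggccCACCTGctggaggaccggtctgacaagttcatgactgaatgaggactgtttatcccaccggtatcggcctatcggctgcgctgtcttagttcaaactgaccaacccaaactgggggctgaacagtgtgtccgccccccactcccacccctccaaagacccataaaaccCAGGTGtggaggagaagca
Lsr: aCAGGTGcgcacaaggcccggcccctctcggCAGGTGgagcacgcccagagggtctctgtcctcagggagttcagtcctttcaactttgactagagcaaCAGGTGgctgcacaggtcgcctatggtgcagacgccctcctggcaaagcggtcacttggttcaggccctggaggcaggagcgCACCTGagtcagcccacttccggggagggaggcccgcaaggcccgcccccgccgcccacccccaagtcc
Rab25: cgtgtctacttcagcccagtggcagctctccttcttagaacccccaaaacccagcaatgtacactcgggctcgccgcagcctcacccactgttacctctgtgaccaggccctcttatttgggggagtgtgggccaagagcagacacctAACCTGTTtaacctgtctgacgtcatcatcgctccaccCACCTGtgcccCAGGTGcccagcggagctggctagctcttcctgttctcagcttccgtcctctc
The Cldn6 window holds 1 E-box, the Epcam window 2, the Lsr window 4 and the Rab25 window 2.

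The 13 genes with the E-box were Cldn4, Cldn6, Cldn7, Ocln, F11r, Lsr, Tjp3, Crb3, Pard3, Pard6b, Patj, Epcam and Rab25. In Yy1 mutants against controls, 6 of these 13 were called lower and 0 higher, and among the 15 genes whose windows lacked the E-box 2 were called lower and 1 higher. In Dicer mutants against controls, 4 of the 13 were called lower and 2 higher, and of the 15 without it 2 were lower and 3 higher. A further 13 genes, among them Cdh1, Dsg2 and Llgl2, had no window and were not searched. Of these, 5 were called lower and 0 higher in Yy1 mutants, and 3 lower and 1 higher in Dicer mutants. Of all genes, 3.84% were called lower and 2.77% higher in Yy1 mutants, and 3.97% and 4.78% in Dicer mutants. The difference between genes with and without the E-box was not tested. Of 6 measured repressors of the Snai, Zeb and Twist families, Zeb1 was the only one called in either mutant. Zeb1 had 7.90 ± 0.114 in Yy1 mutants, 7.84 ± 0.0432 in Dicer mutants and 7.35 ± 0.117 in controls (SD, n = 4 each). It was higher by 0.55 in Yy1 mutants (limma adjusted p = 0.000595) and by 0.49 in Dicer mutants (limma adjusted p = 0.00119). Zeb1 is also expressed in mesenchyme, and its part in the levels of the junction genes was not tested.

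Of the 15 claudins, 3 were called lower (20%) and 1 higher (6.67%) in Yy1 mutants against controls, where 3.84% of all genes were lower and 2.77% higher. In Dicer mutants against controls 4 were lower (26.7%) and 1 higher (6.67%), where 3.97% of all genes were lower and 4.78% higher. Between the mutants 1 was higher in Yy1 mutants (6.67%) and 0 lower, where 1.57% of all genes were higher and 3.39% lower. Cldn6, an early claudin of embryonic epithelia, had log2 levels of 8.86, 9.03, 8.75 and 8.52 in Yy1 mutants, 8.96, 8.70, 9.04 and 8.92 in Dicer mutants, and 9.76, 9.84, 9.64 and 9.63 in controls. Every mutant array lay below every control array, and the mutant genotypes overlapped each other. Cldn6 was lower by -0.93 (SE 0.106) in Yy1 mutants, a 1.90-fold difference (limma adjusted p = 0.000138), and by -0.81 in Dicer mutants, a 1.75-fold difference (limma adjusted p = 0.000349). The mutants differed by -0.12, which was not called (limma adjusted p = 0.621). Cldn10, whose isoforms form ion-selective paracellular pores, had 5.38, 5.40, 5.29 and 5.13 in Yy1 mutants, 5.52, 5.33, 5.25 and 5.52 in Dicer mutants, and 5.87, 6.31, 6.45 and 6.09 in controls. The controls again lay above all 8 mutant arrays, at a level that is dim on these arrays. The difference was -0.88 (SE 0.117) in Yy1 mutants (limma adjusted p = 0.000402) and -0.78 in Dicer mutants (limma adjusted p = 0.000962), with no call between the mutants (-0.11, limma adjusted p = 0.703).

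Cldn9, the neighbour of Cldn6 on chromosome 17 and a close relative of it, differed between the mutants. It had 6.30, 6.39, 6.42 and 6.19 in Yy1 mutants, 5.93, 5.81, 6.06 and 6.04 in Dicer mutants, and 6.56, 6.33, 6.51 and 6.71 in controls. The Dicer mutant arrays lay below all the others, and the Yy1 mutant arrays overlapped the controls. Cldn9 was lower by -0.57 (SE 0.0893) in Dicer mutants (1.48-fold, limma adjusted p = 0.00137), while the difference of -0.20 in Yy1 mutants was not called (limma adjusted p = 0.228). The Yy1 mutants were higher than the Dicer mutants by 0.36 (limma adjusted p = 0.0318), a call that was lost without any 1 of Yy1 mutant 1, 2 and 3 and Dicer mutant 1, 2 and 4 (limma adjusted p = 0.0541 to 0.10) and without the 3 arrays with raised Eif2s3y (limma adjusted p = 0.308). Cldn8, a claudin that tightens the paracellular barrier to cations, had 5.59 ± 0.138 in Yy1 mutants, 5.67 ± 0.233 in Dicer mutants and 6.07 ± 0.151 in controls (SD, n = 4 each). Cldn8 was called lower by -0.48 in Yy1 mutants (limma adjusted p = 0.0237) and by -0.40 in Dicer mutants (limma adjusted p = 0.0457). Its call in Yy1 mutants was lost without any 1 of Yy1 mutant 2, 3 and 4 and control 1 and 3 (limma adjusted p = 0.0526 to 0.0738). Its call in Dicer mutants was lost without any 1 array other than Yy1 mutant 1, Dicer mutant 4 and control 4 (limma adjusted p = 0.0567 to 0.129).

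Cldn5, the main claudin of blood vessels, was the only member called higher in Yy1 mutants. It had 8.15 ± 0.0763 in Yy1 mutants, 8.34 ± 0.0667 in Dicer mutants and 7.85 ± 0.147 in controls (SD, n = 4 each), and both sets of mutant arrays lay above the controls. Cldn5 was higher by 0.48 (SE 0.0783) in Dicer mutants, a 1.40-fold difference (limma adjusted p = 0.00169). The 0.29 in Yy1 mutants (limma adjusted p = 0.0399) was lost when any 1 array other than Dicer mutant 1 and control 2 was left out (limma adjusted p = 0.0520 to 0.124). Beside it, 9 of 14 endothelial markers, which include the endothelial junction proteins Cdh5, Pecam1 and Esam, were called higher and 0 lower in Dicer mutants, and 0 of 14 were called in Yy1 mutants by limma, with 0 also at an unadjusted p under 0.05. The shares over all genes were 3.97% lower and 4.78% higher in Dicer mutants, and 3.84% lower and 2.77% higher in Yy1 mutants. The mean level of the 14 endothelial markers was 8.94 to 9.24 in Yy1 mutants, 9.34 to 9.43 in Dicer mutants and 8.93 to 9.19 in controls over the arrays of each genotype. The part of vessel RNA in the Cldn5 values was not tested.

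The other 10 claudins, Cldn1, Cldn2, Cldn3, Cldn4, Cldn7, Cldn11, Cldn12, Cldn15, Cldn18 and Cldn23, were called in no comparison. Their differences ran between -0.37 (Cldn3) and 0.02 (Cldn15) in Yy1 mutants, and between -0.39 (Cldn4) and 0.21 (Cldn7) in Dicer mutants. Cldn18, whose lung isoform is a marker of the distal airway and alveolar epithelium, had 9.25 ± 0.431 in Yy1 mutants, 9.29 ± 0.28 in Dicer mutants and 9.51 ± 0.247 in controls (SD, n = 4 each). Its spread in Yy1 mutants was the widest of any claudin in any genotype and exceeded each of its differences. Cldn3 and Cldn4 are neighbours on chromosome 5 and both sealing claudins. Cldn3 was at -0.37 in Yy1 mutants (limma adjusted p = 0.122) and -0.12 in Dicer mutants, and Cldn4 at -0.03 and -0.39 (limma adjusted p = 0.0615 in Dicer mutants). Whether the 2 genes differed in their response was not tested. Cldn3 was called in Yy1 mutants without Yy1 mutant 2 (-0.51, limma adjusted p = 0.0147) and without the 3 arrays with raised Eif2s3y (-0.56, limma adjusted p = 0.0445). Cldn4 was called in Dicer mutants without Dicer mutant 1 (-0.46, limma adjusted p = 0.0315) or Yy1 mutant 4 (limma adjusted p = 0.0194), and it was higher in Yy1 mutants than in Dicer mutants without Yy1 mutant 4 (0.48, limma adjusted p = 0.0167). In Dicer mutants it was also called lower with quantile normalisation (limma adjusted p = 0.0452) and without the dimmest 30% of genes (limma adjusted p = 0.0343). The same held with an intensity trend and robust prior (limma adjusted p = 0.0289) and with only the groups compared (limma adjusted p = 0.0443).

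**Figure D2:**
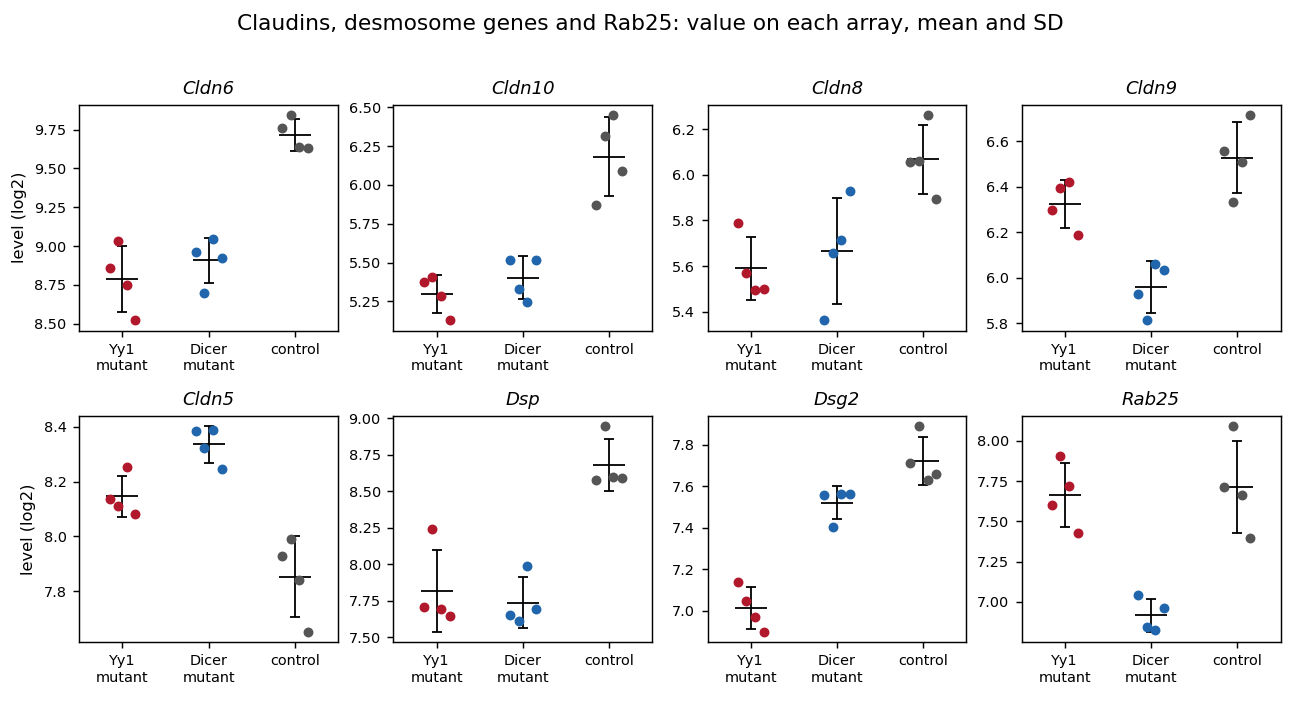
Log2 level (vertical axis) of 5 claudins, 2 desmosome genes and Rab25 on each array of the Yy1 mutants, the Dicer mutants and the controls, with the mean of each genotype as a line and bars of 1 SD. Cldn6, Cldn10, Dsp and Dsg2 lie below the controls on all 8 mutant arrays, Cldn5 lies above them on all 8, and Rab25 is low on the 4 Dicer mutant arrays.

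The non-claudin membrane proteins of the tight junction differed between the mutants. All 5 were lower in Yy1 mutants than in Dicer mutants, by -0.38 to -0.71, with the probe set used here. This was not particular to them, as 9 of 21 epithelial markers outside the junctions were also called lower in that comparison and 2 higher. The shares over all genes were 3.39% lower and 1.57% higher in Yy1 mutants than in Dicer mutants. For Lsr a second probe set gave 0.07, and the call between the mutants ended with the mean of both (limma adjusted p = 0.153). Against controls, Ocln, Marveld3 and Lsr were called lower in Yy1 mutants, and Ocln, Marveld2 and F11r were called higher in Dicer mutants. Occludin (Ocln) had 7.96, 8.03, 7.89 and 7.69 in Yy1 mutants, 8.53, 8.65, 8.66 and 8.57 in Dicer mutants, and 8.38, 8.46, 8.19 and 8.13 in controls. The 3 genotypes did not overlap, with the controls in between. Yy1 mutants lay below Dicer mutants by -0.71 (SE 0.0894), a 1.64-fold difference (limma adjusted p = 0.000366). Ocln was lower by -0.40 in Yy1 mutants than in controls (limma adjusted p = 0.0158), a call that was lost without control 1 (limma adjusted p = 0.0508) and without the 3 arrays with raised Eif2s3y (limma adjusted p = 0.0718). It was higher by 0.31 in Dicer mutants (limma adjusted p = 0.0459), a call that was lost without any 1 array other than Yy1 mutant 2 and 4 and control 2 (limma adjusted p = 0.0539 to 0.124).

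Marveld2, tricellulin of the contacts where 3 cells meet, adjoins Ocln on chromosome 13. It had 7.10 ± 0.104 in Yy1 mutants, 7.57 ± 0.104 in Dicer mutants and 7.19 ± 0.0479 in controls (SD, n = 4 each). The Dicer mutant arrays lay above all the others, with a difference of 0.38 from controls (limma adjusted p = 0.00463), and Yy1 mutants lay below Dicer mutants by -0.47 (limma adjusted p = 0.00175). F11r, the junctional adhesion molecule JAM-A, had 8.73 ± 0.129 in Yy1 mutants, 9.11 ± 0.0705 in Dicer mutants and 8.82 ± 0.0363 in controls (SD, n = 4 each). It was higher by 0.30 in Dicer mutants than in controls (limma adjusted p = 0.0194, lost at 0.0519 without Dicer mutant 1), and Yy1 mutants lay below Dicer mutants by -0.38 (limma adjusted p = 0.00615). Neither Marveld2 nor F11r was called in Yy1 mutants against controls.

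Marveld3 and Lsr were low in Yy1 mutants and near the controls in Dicer mutants. Marveld3, the third Marvel-domain protein of the strands, had 6.59 ± 0.133 in Yy1 mutants, 7.06 ± 0.143 in Dicer mutants and 6.99 ± 0.0754 in controls (SD, n = 4 each). It was lower by -0.40 in Yy1 mutants than in controls (limma adjusted p = 0.0124) and by -0.46 than in Dicer mutants (limma adjusted p = 0.00617). Lsr, angulin-1, which recruits tricellulin and whose window with 4 E-boxes is printed above, had 7.73 ± 0.107 in Yy1 mutants, 8.16 ± 0.0903 in Dicer mutants and 8.14 ± 0.173 in controls (SD, n = 4 each). Its difference of -0.42 in Yy1 mutants (limma adjusted p = 0.0127) came from the brighter of its 2 probe sets. The other gave 0.09, and the call was lost with the mean of both (limma adjusted p = 0.183).

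**Figure D3:**
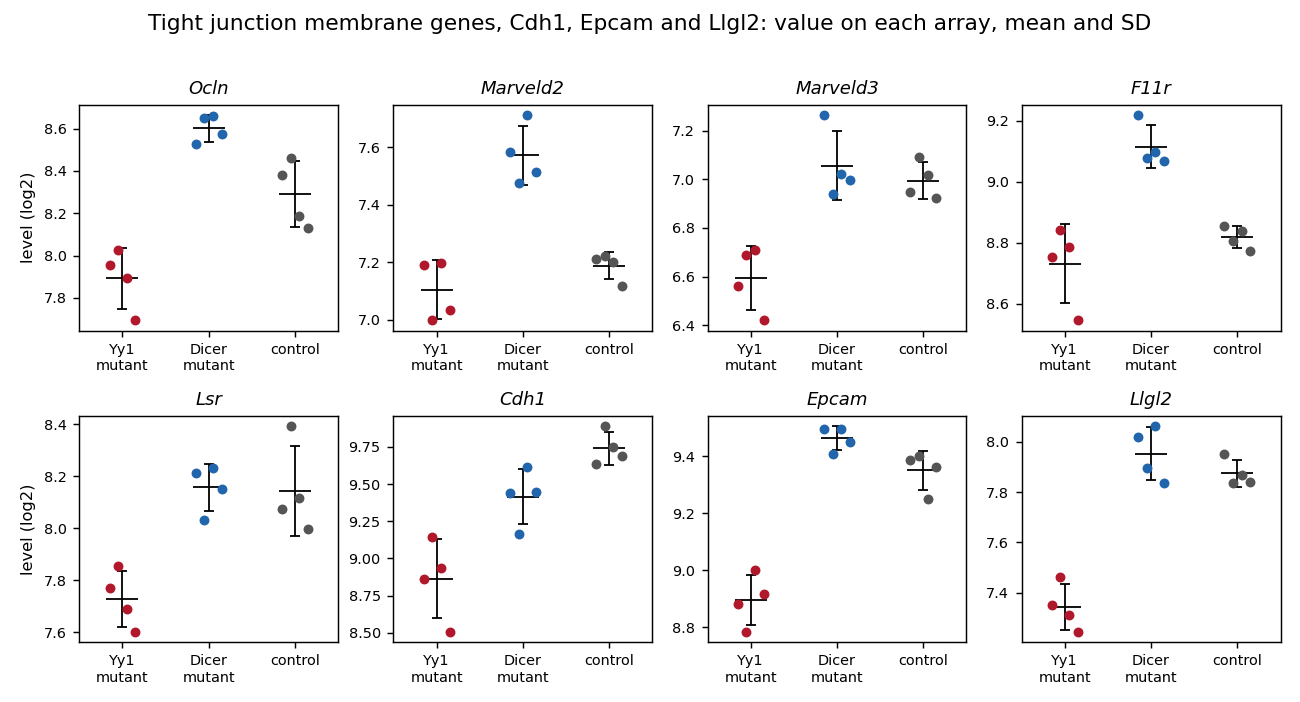
Log2 level (vertical axis) of Ocln, Marveld2, Marveld3, F11r, Lsr, Cdh1, Epcam and Llgl2 on each array of the Yy1 mutants, the Dicer mutants and the controls, with the mean of each genotype as a line and bars of 1 SD. For all 8 genes, which were chosen for the figure, every Yy1 mutant array lies below every Dicer mutant array. Of the members not shown here, Tjp1, Pard3, Patj and Dsg2 also lie below without overlap. Cldn9, Crb3, Pkp1 and Rab25 lie above without overlap, and the rest overlap. How many of all genes separate in this way was not counted, so the separation is not read as a trait of these members.

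In the plaque of the tight junction, Tjp3 (ZO-3), a scaffold found mainly in epithelia, was lower in both mutants. Tjp3 had 6.86 ± 0.0439 in Yy1 mutants, 6.93 ± 0.15 in Dicer mutants and 7.34 ± 0.103 in controls (SD, n = 4 each), and no mutant array reached the controls. The difference was -0.48 in Yy1 mutants (limma adjusted p = 0.00258) and -0.41 in Dicer mutants (limma adjusted p = 0.00588). Tjp1 (ZO-1), a scaffold that endothelium also uses, was higher by 0.24 in Dicer mutants (limma adjusted p = 0.0277, lost at 0.0533 to 0.0861 without any 1 of Dicer mutant 1, 3 and 4 and control 1, 3 and 4), and was at 0.02 in Yy1 mutants (limma adjusted p = 0.898). Cingulin (Cgn), which links the plaque to actomyosin, was not called, with -0.34 in Yy1 mutants (limma adjusted p = 0.0571) and -0.24 in Dicer mutants (limma adjusted p = 0.173). Cgn was called in Yy1 mutants without Dicer mutant 2 (limma adjusted p = 0.0295) or control 3 (limma adjusted p = 0.0257). It was also called there without the dimmest 30% of genes (limma adjusted p = 0.0304) and with an intensity trend and robust prior (limma adjusted p = 0.0274).

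Among the polarity genes, Llgl2, a basolateral protein of the Scribble group, had 7.35, 7.46, 7.31 and 7.25 in Yy1 mutants, 8.02, 7.89, 8.06 and 7.84 in Dicer mutants, and 7.95, 7.84, 7.87 and 7.84 in controls. The Yy1 mutant arrays lay below all 8 others, and the Dicer mutants overlapped the controls. Llgl2 was lower by -0.53 (SE 0.0707) in Yy1 mutants than in controls (1.44-fold, limma adjusted p = 0.000426) and by -0.61 than in Dicer mutants (limma adjusted p = 0.000209), and it was at 0.08 in Dicer mutants against controls (limma adjusted p = 0.575). Patj, an apical scaffold of the Crumbs complex, was lower by -0.39 in Yy1 mutants (limma adjusted p = 0.0114, lost at 0.0721 without the 3 arrays with raised Eif2s3y) and at -0.13 in Dicer mutants (limma adjusted p = 0.397). Crb3, the epithelial Crumbs protein itself, was lower by -0.35 in Dicer mutants (limma adjusted p = 0.00534) and at -0.13 in Yy1 mutants (limma adjusted p = 0.318). Neither Patj nor Crb3 was called between the mutants, so a difference in response was not shown for them. Mpp5 (Pals1), which joins Crumbs to Patj, was higher by 0.28 in Dicer mutants (limma adjusted p = 0.0335), a call that was lost without any 1 of Dicer mutant 2, 3 and 4 and control 3 and 4 (limma adjusted p = 0.0732 to 0.106). In Yy1 mutants its difference of 0.24 was not called (limma adjusted p = 0.0903). With quantile normalisation (limma adjusted p = 0.0186) or an intensity trend and robust prior (limma adjusted p = 0.0441) Mpp5 was called higher there. The Par complex members Pard3 and Pard6b were called in no comparison, with -0.20 and -0.30 in Yy1 mutants (limma adjusted p = 0.051 and 0.129). Pard3 was called in Yy1 mutants without control 2 (-0.22, limma adjusted p = 0.0439). It was also called there without the dimmest 30% of genes (limma adjusted p = 0.0249) and with an intensity trend and robust prior (limma adjusted p = 0.0242).

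E-cadherin (Cdh1), the cadherin of epithelial adherens junctions, had 8.86, 9.14, 8.94 and 8.51 in Yy1 mutants, 9.44, 9.17, 9.61 and 9.45 in Dicer mutants, and 9.63, 9.89, 9.75 and 9.69 in controls. The 3 genotypes did not overlap, and the Dicer mutants lay between the Yy1 mutants and the controls. Cdh1 was lower by -0.88 (SE 0.125) in Yy1 mutants, a 1.84-fold difference (limma adjusted p = 0.000706), and was at -0.32 in Dicer mutants without a call (limma adjusted p = 0.138). Yy1 mutants lay below Dicer mutants by -0.55 (limma adjusted p = 0.0203), and this call was lost without Yy1 mutant 1 (0.0513), Dicer mutant 3 (0.0694) or Dicer mutant 4 (0.0567). A second, dim probe set gave -0.24 in Yy1 mutants against controls, and the mean of both gave -0.56, still called.

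Epcam, a calcium-independent adhesion molecule of epithelia that binds claudins, had 8.88, 8.79, 9.0 and 8.92 in Yy1 mutants, 9.50, 9.41, 9.50 and 9.45 in Dicer mutants, and 9.39, 9.40, 9.25 and 9.36 in controls. The Yy1 mutant arrays were the lowest, and the Dicer mutant arrays lay just above the controls. Epcam was lower by -0.45 (SE 0.0646) in Yy1 mutants than in controls (1.37-fold, limma adjusted p = 0.000691) and by -0.57 than in Dicer mutants (limma adjusted p = 0.000179), while the 0.11 in Dicer mutants was not called (limma adjusted p = 0.336). The catenins Ctnna1 and Ctnnd1, which bind cadherins in most cell types of the lung, lay within 0.11 of the controls in both mutants and were not called.

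Of 7 desmosome genes, Dsp and Dsg2 were called lower in Yy1 mutants, and Dsp and Pkp3 in Dicer mutants, against controls. That is 28.6% in each mutant, where 3.84% of all genes were called lower in Yy1 mutants and 3.97% in Dicer mutants. Desmoplakin (Dsp), which ties the plaque to keratin, had 7.70, 8.24, 7.69 and 7.65 in Yy1 mutants, 7.66, 7.61, 7.99 and 7.70 in Dicer mutants, and 8.58, 8.94, 8.59 and 8.59 in controls. All 8 mutant arrays lay below the controls, and replicate 2 was the highest array both of the Yy1 mutants and of the controls. Dsp was lower by -0.86 (SE 0.135) in Yy1 mutants (1.81-fold, limma adjusted p = 0.00155) and by -0.94 in Dicer mutants (1.92-fold, limma adjusted p = 0.000713). The mutants differed from each other by 0.08 (limma adjusted p = 0.812). Heart muscle also uses Dsp, and the mean level of 8 heart muscle markers was 6.94, 7.28, 6.73 and 6.30 in Yy1 mutants, 6.16, 6.78, 7.86 and 7.26 in Dicer mutants, and 6.48, 6.70, 6.67 and 6.59 in controls. Yy1 mutant 2 and Dicer mutant 3 had the highest heart marker level and the highest Dsp level of their genotype. The same arrays also had the highest mean level of the epithelial markers outside the junctions described below. That level was 7.51 in Yy1 mutant 2 and 7.66 in Dicer mutant 3, with Dicer mutant 1 also at 7.66. The parts of heart RNA and of epithelial RNA in the Dsp values were not tested.

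Desmoglein 2 (Dsg2), the desmosomal cadherin of simple epithelia, had 7.14, 7.05, 6.97 and 6.90 in Yy1 mutants, 7.56, 7.40, 7.56 and 7.56 in Dicer mutants, and 7.71, 7.89, 7.63 and 7.66 in controls. The 3 genotypes did not overlap, and the Dicer mutants lay closer to the controls than the Yy1 mutants did. Dsg2 was lower by -0.71 (SE 0.077) in Yy1 mutants than in controls (1.64-fold, limma adjusted p = 9.37e-05) and by -0.51 than in Dicer mutants (limma adjusted p = 0.0015), while the -0.20 in Dicer mutants was not called (limma adjusted p = 0.135). A dim second probe set gave 0.05 in Yy1 mutants against controls, and the mean of both gave -0.33, still called. The call between the mutants was lost without the 3 arrays with raised Eif2s3y (limma adjusted p = 0.0601). Plakophilin 3 (Pkp3) was lower by -0.26 in Dicer mutants (limma adjusted p = 0.048), and the call was lost without any 1 array other than Yy1 mutant 3 and control 2 (limma adjusted p = 0.0526 to 0.118). Dsc2, Pkp1, Pkp2 and plakoglobin (Jup) were called in no comparison. The lowest of their differences was the -0.31 of Jup in Yy1 mutants (limma adjusted p = 0.18). Jup was called lower in Yy1 mutants without Yy1 mutant 2 (-0.45, limma adjusted p = 0.0106) and without the 3 arrays with raised Eif2s3y (-0.49, limma adjusted p = 0.0407). Without Yy1 mutant 2 it was also lower in Yy1 mutants than in Dicer mutants (-0.44, limma adjusted p = 0.0130). Pkp1 was called higher in Yy1 mutants than in Dicer mutants without control 2 (limma adjusted p = 0.0321) or control 4 (limma adjusted p = 0.0473). It was also called there without the dimmest 30% of genes (limma adjusted p = 0.0476) and with only the groups compared (limma adjusted p = 0.0213).

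Rab25, an epithelial GTPase of apical recycling endosomes whose window above holds 2 E-boxes and the Grainyhead-like site, was called lower in Dicer mutants and not in Yy1 mutants. It had 7.60, 7.91, 7.72 and 7.43 in Yy1 mutants, 7.04, 6.84, 6.82 and 6.96 in Dicer mutants, and 7.71, 8.09, 7.66 and 7.40 in controls. The 4 Dicer mutant arrays lay below all the others, and the Yy1 mutants overlapped the controls across their whole range. Rab25 was lower by -0.80 (SE 0.132) in Dicer mutants (1.74-fold, limma adjusted p = 0.00189) and at -0.05 in Yy1 mutants (limma adjusted p = 0.895). Yy1 mutants lay above Dicer mutants by 0.75, a 1.68-fold difference (limma adjusted p = 0.00416) that was not called without the 3 arrays with raised Eif2s3y (0.61, limma adjusted p = 0.122).

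A wider list held 50 further junction and polarity genes, of which 47 were measured. In Yy1 mutants 8 of the 47 were called lower (17%) and 1 higher (2.13%) against controls, with a median difference of -0.08. Of all genes, 3.84% were lower and 2.77% higher. In Dicer mutants 5 were lower (10.6%) and 1 higher (2.13%), with a median of -0.05, where 3.97% of all genes were lower and 4.78% higher. Between the mutants 3 were lower in Yy1 mutants (6.38%) and 0 higher, where 3.39% of all genes were lower and 1.57% higher. The share called higher was thus under that of all genes. P-cadherin (Cdh3), which adjoins Cdh1 on chromosome 8, had 8.50 ± 0.149 in Yy1 mutants, 9.54 ± 0.112 in Dicer mutants and 9.22 ± 0.143 in controls (SD, n = 4 each). It was lower in Yy1 mutants by -0.73 against controls (limma adjusted p = 0.000323) and by -1.04 against Dicer mutants (limma adjusted p = 2.77e-05). Lin7a, a scaffold that binds Mpp5, had 7.25 ± 0.0904 in Yy1 mutants, 8.25 ± 0.0735 in Dicer mutants and 8.08 ± 0.0768 in controls (SD, n = 4 each), and lay below Dicer mutants by -1.01 in Yy1 mutants (limma adjusted p = 2.1e-06). The atypical protein kinase C gene Prkcz, whose product works with the Par proteins, was lower by -0.41 in Yy1 mutants (limma adjusted p = 0.000879) and by -0.42 in Dicer mutants (limma adjusted p = 0.000767). Ctnna2, the neuronal alpha-catenin, was the 1 gene of this list called higher, by 1.02 in Yy1 mutants (limma adjusted p = 0.00114) and by 0.63 in Dicer mutants (limma adjusted p = 0.0222).

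The members' values were set beside 21 measured epithelial markers outside the junctions, such as Nkx2-1, keratins and the Grainyhead-like factors. For these too, fewer epithelial cells and less RNA of a gene per cell cannot be told apart. Their differences from controls were uneven, at -1.19 to -0.0051 in Yy1 mutants and -0.82 to 0.67 in Dicer mutants. In Yy1 mutants 14 of the 21 were called lower and 0 higher against controls, with a median difference of -0.57. In Dicer mutants 14 were lower and 2 higher, with a median of -0.38. Between the mutants 9 were lower in Yy1 mutants than in Dicer mutants and 2 higher, with a median of -0.32. The shares over all genes were 3.84% lower and 2.77% higher in Yy1 mutants against controls. They were 3.97% lower and 4.78% higher in Dicer mutants against controls. For Yy1 mutants against Dicer mutants they were 3.39% lower and 1.57% higher. The mean level of the 21 markers was 7.22 to 7.51 in Yy1 mutants, 7.47 to 7.66 in Dicer mutants and 7.80 to 8.03 in controls. Over the 41 junction and polarity genes the mean level was 7.34 to 7.56 in Yy1 mutants, 7.50 to 7.63 in Dicer mutants and 7.65 to 7.76 in controls. Of the junction genes, Ocln, Marveld2 and F11r were among those called higher in Dicer mutants. With 1 array left out, Ocln stayed called in 3 of 12 fits, F11r in 11 and Marveld2 in 12. The part of the epithelial share in the junction values was not tested.

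Markers of other cells also moved. Of all genes, 3.84% were called lower and 2.77% higher in Yy1 mutants, and 3.97% lower and 4.78% higher in Dicer mutants. Between the mutants 3.39% were lower in Yy1 mutants and 1.57% higher. The lists are short, so 1 call in a list of 4, 7 or 8 genes says little. Leukocyte markers were called higher for 8 of 10 in Yy1 mutants and 9 of 10 in Dicer mutants, with 0 lower in either. Mesenchymal markers were higher for 5 of 11 in Yy1 mutants and 6 of 11 in Dicer mutants, with 0 lower. Mesothelial markers were higher for 1 of 8 in Yy1 mutants and 4 of 8 in Dicer mutants, and heart muscle markers were called for 0 of 8 in either mutant, with 0 also at an unadjusted p under 0.05. Their mean level nonetheless varied widely within the mutants, at 6.30 to 7.28 in Yy1 mutants and 6.16 to 7.86 in Dicer mutants, against 6.48 to 6.70 in controls. Of markers of oesophagus and thymus, 0 of 7 were called in Yy1 mutants (2 at an unadjusted p under 0.05) and 1 of 7 lower in Dicer mutants, and of erythroid markers 0 of 4 were called in Yy1 mutants (0 at an unadjusted p under 0.05) and 1 of 4 higher in Dicer mutants. Between the mutants, 8 of 14 endothelial markers were called lower in Yy1 mutants than in Dicer mutants and 0 higher. The part of these cells in the values of Tjp1, F11r, Mpp5 and Cldn5, which endothelium also expresses, was not tested.

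**Figure D4:**
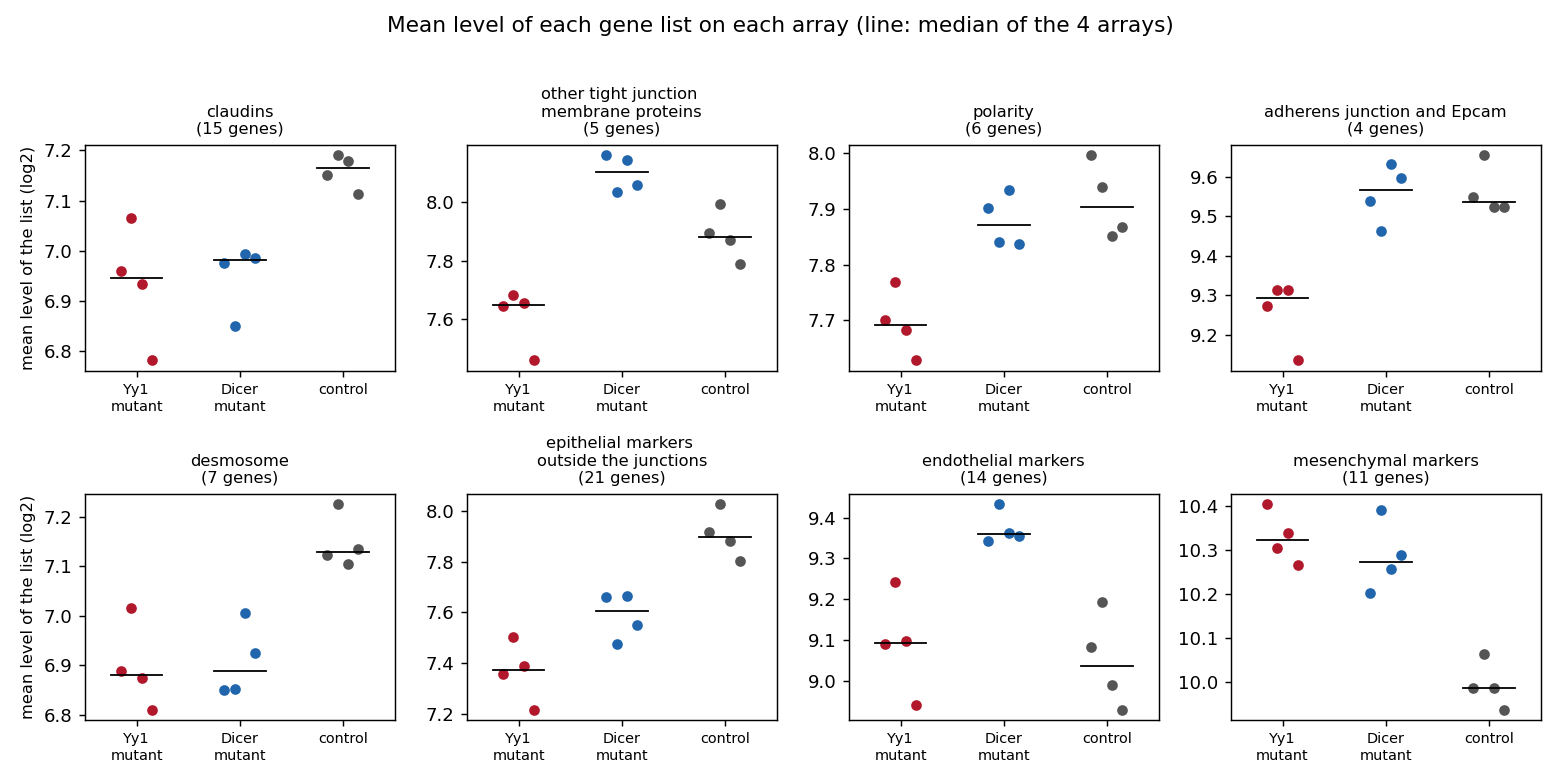
Mean log2 level (vertical axis) of the genes of 8 lists on each array of the Yy1 mutants, the Dicer mutants and the controls, with the median of the 4 arrays as a line. The epithelial markers outside the junctions lie lowest in Yy1 mutants (7.22 to 7.51) and highest in controls (7.80 to 8.03), and the endothelial markers are highest in Dicer mutants (9.34 to 9.43).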

How the data were processed

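Per the labels' protocols, RNA was extracted with Trizol, treated with DNase I, checked on a Bioanalyser and labelled by the standard Affymetrix procedure. The deposited table holds 1 value per probe set and array. The values lay between 1.1 and 13.6 and are taken to be log2 levels that the authors had normalised. How probes were summarised and normalised, with which software and on which array, is not given in the sources used here. Pairs of arrays correlated at 0.978 to 0.991 and 0 pairs were identical. Of 41345 probe sets, 23521 had exactly 1 gene symbol in the platform annotation, and each gene was represented by its brightest probe set, which left 22180 genes. No intensity filter was applied, and the number of arrays limits the precision.

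The 3 genotypes were fitted in 1 model with limma 3.58.1 (lmFit and eBayes, 9 residual degrees of freedom) in R 4.3.3, two-sided, with Benjamini-Hochberg adjustment over all genes. The fit was tested on simulated data. Differences have the model's standard error (SE) and levels the standard deviation (SD). The members, lists and tests were chosen with earlier results of these data known. Values by array are given for members called in any comparison with a difference of at least 0.5. Of other lists, up to 4 called genes with the smallest p were named. Upstream sequences came from RefSeq (GRCm38.p6), and the 250 bases before each start were searched on both strands. They were read by gene symbol and are independent of the array's build. Alternatives were quantile normalisation, the mean of all probe sets, leaving out the dimmest 30% of genes, an intensity trend with a robust prior, only the groups compared, the replicate number as a block and leaving out each array. Leaving out the 3 arrays with raised Eif2s3y was added after seeing the data. Tables and plots were made with Python 3.11.15, pandas 2.3.3, numpy 2.4.6 and matplotlib 3.10.9.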

Additional observations from a re-analysis of the deposited data

Results flagged for a closer look

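Of 123 groups of 4 arrays, 1 for each gene and genotype, 9 held an array set apart from the other 3 by Dixon's criterion, which chance alone meets in about 1 group of 20. In the Yy1 mutants, replicate 4 was low for Cldn4 at 7.65, against 8.10 to 8.17 on the other arrays, and low for Cldn7 at 6.25, against 6.54 to 6.59. Replicate 2 of the Yy1 mutants was high for Dsp at 8.24, against 7.65 to 7.70. In the Dicer mutants, replicate 2 was low for Patj at 7.52, against 7.67 to 7.68, and low for Dsg2 at 7.40, against 7.56 on the others. Replicate 4 of the Dicer mutants was high for Ctnnd1 at 9.33, against 9.22 to 9.24, and replicate 1 was low for Dsc2 at 4.71, against 5.08 to 5.12. In the controls, replicate 2 was high for Ctnna1 at 10.2, against 9.94 to 9.95, and high for Dsp at 8.94, against 8.58 to 8.59. Of these genes Dsp, Dsg2 and Patj were called. Leaving out each array in turn kept the calls of Dsp in both mutants and of Dsg2 and Patj in Yy1 mutants against controls.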

How the results depend on the processing

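Of 2328 values of the 41 genes under alternatives, 2156 kept their direction and side of the threshold, 92 lost a call, 28 gained one and 52 changed sign. The sign changes concerned 20 results, of which 0 were called. With 4 arrays per genotype, differences of the size of the spread between arrays were not detectable. Of the calls, 9 of 14 held under every alternative in Yy1 mutants, 9 of 15 in Dicer mutants and 6 of 11 between the mutants. Genes called lower numbered 11 to 14 in Yy1 mutants, 7 to 8 in Dicer mutants and 8 to 10 between the mutants when 1 array was left out. Genes called higher then numbered 0 to 1 in Yy1 mutants, 3 to 6 in Dicer mutants and 1 to 3 between the mutants. In Yy1 mutants they were 2 with quantile normalisation, 2 with an intensity trend and 0 with only the groups compared. Without the 3 arrays with raised Eif2s3y, a setting with fewer arrays, the counts of higher genes were 0, 2 and 0 in the order of the comparisons above, and the genes called among all 22180 numbered 606 for Yy1 mutants against controls, 976 for Dicer mutants against controls and 435 between the mutants, where all arrays gave 1465, 1940 and 1101. Over the fits that left out 1 array these counts ran between 1020 and 1455, 1275 and 1991, and 726 and 1180, and the lowest values for Dicer mutants and between the mutants came without Dicer mutant 4.

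Arrays with the same replicate number did not deviate together, with correlations of -0.161 to 0.19 and 3 of 12 above 0.1, so the numbers were not taken to pair samples. With the replicate number as a block, 13, 13 and 10 of the 41 genes were called, against 14, 15 and 11 without it, and the genes higher between the mutants became 1 in place of 2. The calls that ended with the block were those of Cldn8 in Yy1 mutants (limma adjusted p = 0.0585), Cldn8 and Pkp3 in Dicer mutants (0.0880 and 0.0721) and Cldn9 between the mutants (0.0501). The block gave 1301, 1848 and 997 called genes in all.

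The differences that changed sign were near 0. Leaving out 1 array, Yy1 mutants minus controls ran between -0.079 and 0.094 for Cldn4, -0.042 and 0.070 for Cldn7, -0.119 and 0.0064 for Cldn11, -0.079 and 0.077 for Cldn15, -0.068 and 0.057 for Cldn23, -0.0064 and 0.080 for Ctnna1, and -0.158 and 0.074 for Rab25. Dicer mutants minus controls ran between -0.135 and 0.013 for Cldn1, -0.0077 and 0.101 for Marveld3, -0.036 and 0.096 for Lsr, -0.087 and 0.062 for Pard6b, -0.049 and 0.128 for Pkp2, and -0.054 and 0.040 for Jup. Yy1 mutants minus Dicer mutants ran between -0.079 and 0.118 for Cldn2, -0.176 and 0.012 for Cldn8, -0.249 and 0.058 for Cldn18, -0.025 and 0.016 for Ctnnd1, -0.058 and 0.166 for Dsp, and -0.029 and 0.103 for Pkp2. Without the 3 arrays with raised Eif2s3y, Tjp1 was at -0.025 and Ctnna1 at -0.021 in Yy1 mutants against controls, Pard6b at 0.0022 and Jup at 0.012 in Dicer mutants against controls, and Cldn8 at 0.069, Ctnnd1 at 0.0050 and Dsp at -0.077 in Yy1 mutants against Dicer mutants. With quantile normalisation Cldn2 was at -0.029 and Ctnnd1 at 0.020 between the mutants. The cause was not tested for any of these changes.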

Other observations

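Of the 21 epithelial markers outside the junctions, those with the smallest p are given here. In Yy1 mutants against controls, the 4 with the smallest p were Foxa2, a forkhead factor of the lung endoderm, at -0.96 (limma adjusted p = 2.42e-05), keratin Krt7 at -0.90 (limma adjusted p = 4.56e-05), the splicing factor Esrp2 at -0.87 (limma adjusted p = 5.03e-05) and the Ets factor Elf5 of the distal tip at -1.19 (limma adjusted p = 0.000127). In Dicer mutants against controls they were the Ets factors Ehf at -0.76 (limma adjusted p = 0.000608) and Elf3 at -0.82 (limma adjusted p = 0.000847), Grhl1 at -0.54 (limma adjusted p = 0.00225) and keratin Krt19 at -0.76 (limma adjusted p = 0.00298). Between the mutants, the matriptase inhibitor Spint1 was lower by -0.88 in Yy1 mutants than in Dicer mutants (limma adjusted p = 0.00205) and the membrane protease Prss8 by -0.79 (limma adjusted p = 0.00287). In all, 9 of the 21 were called lower in that comparison and 2 higher, where 3.39% of all genes were lower and 1.57% higher. Of the markers named above, Foxa2 (-0.46), Krt7 (-0.47), Esrp2 (-0.50) and Elf5 (-0.52) were called lower there, and Ehf (0.415) higher.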
